A study of Mus musculus with 2 samples.

Results

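The genes described here are the nuclear-encoded subunits of the mitochondrial respiratory chain and of the ATP synthase. They are all listed genes whose symbol starts with Nduf (Ndufaf assembly factors left out), Uqcr, Cox4i, Cox5, Cox6, Cox7, Cox8 or Atp5, without 14 listed genes whose symbol holds -ps. This gave 86 of 55487 genes, 41 for complex I, 8 for complex III, 19 for complex IV and 18 for complex V. Of these, 82 are annotated as protein coding, and they lie on 19 chromosomes. Over all cells 1 member had no UMI (the second of 2 identifiers named Atp5o, ENSMUSG00000116933), and 3 members, that one, Cox7b2 and Cox8c, had fewer than 20 UMIs in both libraries together. A UMI (unique molecular identifier) counts 1 captured RNA molecule. Among the genes left out by the -ps rule, Ndufb1-ps was abundant, with 39351 UMIs in all WT and 38559 in all KO cells. It is not counted with complex I below.

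The respiratory chain of the inner mitochondrial membrane passes electrons from NADH and succinate to oxygen and pumps protons on the way, and the ATP synthase uses the proton gradient to make ATP. Complex I (NADH dehydrogenase) and complex II feed electrons to ubiquinone, complex III (cytochrome bc1) passes them to cytochrome c, complex IV (cytochrome c oxidase) reduces oxygen, and complex V is the ATP synthase. A few subunits are encoded by mitochondrial DNA and all others by nuclear genes, some of which have isoforms made in muscle fibres, in vascular mural cells or in germ cells. Quiescent muscle stem cells are known for few mitochondria and low respiration, which increase when the cells are activated and when they differentiate.

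Single cells of injured tibialis anterior muscle were measured in 2 libraries, 1 from wild-type mice (WT) and 1 from mice of a conditional Setdb1 knockout (KO). All mice were 8 to 12 weeks old, and cells of both groups were sorted after Hoechst and propidium iodide staining. SETDB1 is a histone methyltransferase that places repressive trimethylation on lysine 9 of histone H3, and the title of the series asks for its role in muscle stem cells during regeneration. The Cre driver, whether an inducing agent was given, what the WT mice carry of the conditional allele or Cre, the kind and day of the injury and the number of animals in each library are given by none of the sources used here. With 1 library a group there is no replicate, so no difference below was tested across animals. Values in brackets are 95% intervals that cover counting error only.

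After filtering, the WT library held 6314 cells with a median of 12122.5 UMIs per cell and the KO library 5730 cells with a median of 13015.5, and 6 barcodes were found in both. Cells were grouped by clustering without the members, and each class name ending in "like" rests on marker genes. Myogenic-like cells numbered 682 in WT and 372 in KO cells and were split into a stem state (585 and 228 cells, marked by Pax7, Myf5 and Cdh15), a cycling state (56 and 81 cells, led by histone genes) and a differentiating state (41 and 63 cells, led by Myog, Mymk and Mymx). Setdb1 in myogenic-like cells was at 18.2 CPM (UMIs scaled to a total of 1e6) in WT and 8.76 CPM in KO cells, which gives a ratio (KO over WT) of 0.480 [0.367 to 0.622] and rests on 245 and 78 UMIs. The Setdb1 ratio of mononuclear phagocyte-like cells was 1.28 [1.16 to 1.41]. The 3' tags count only the end of a transcript, so a tag that remains may come from a cut one. A CPM value is relative: it is lower when other RNA takes more of the total, and RNA per cell cannot be told apart from it.

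Myogenic-like cells gave the largest share of their UMIs to the respiratory chain among classes that hold 50 or more cells per library. The members made up 3.83% of the UMIs of WT and 4.25% of those of KO myogenic-like cells. The next class, mural-like cells (pericytes and vascular smooth muscle), stood at 2.81% and 2.83%. Lower were fibro-adipogenic or fibroblast-like cells, with 2.38% and 2.40%, tenocyte-like cells at 2.21% and 2.30%, mononuclear phagocyte-like cells at 2.32% and 2.14%, dendritic-like cells at 2.18% and 2.14% and endothelial-like cells at 2.12% and 2.01%. The order of these lower classes differed between the libraries, and they lay close together. T or NK lymphocyte-like cells, with only 58 and 35 cells, stood at 2.94% and 2.41%. Within a class cells varied: stem-state cells between the lower and the upper quartile spanned 3.02% to 4.04% among WT and 3.23% to 4.70% among KO cells.

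**Figure D1:**
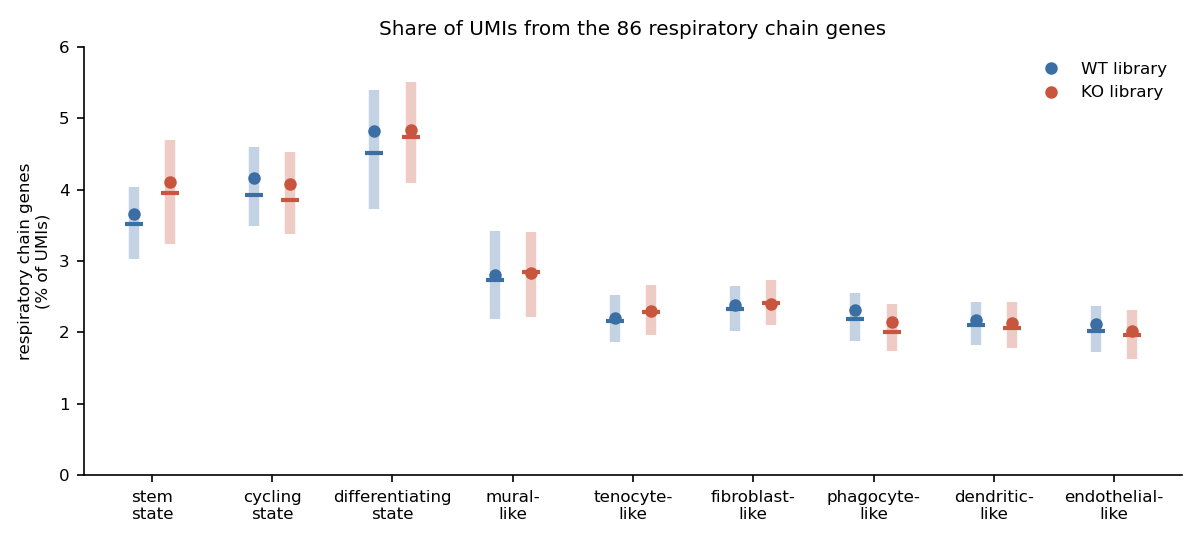
Share of UMIs (percent) that belong to the members, by class or myogenic state and library. Dots are the share over the summed cells, short lines the median over single cells and pale bars the range from the lower to the upper quartile of cells. The myogenic states lie above the other classes in both libraries, and the stem state has medians of 3.52% in WT and 3.95% in KO cells.

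Set against all other cells of the same library, myogenic-like cells held 38275 and 23221 CPM of the members in the WT, a ratio of 1.65, and 42502 and 22236 CPM in the KO library, a ratio of 1.91. Of the members with a mean of at least 50 CPM over the 2 sums, 69 of 72 were higher in myogenic-like cells in the WT (60.1% of all genes at that level were) and 71 of 72 in the KO library (60.2% of all genes). Complex I differed least, at 1.47 in WT and 1.74 in KO cells, and complex III most, at 1.76 and 2.12. Atp5b, the catalytic beta subunit of the ATP synthase, was at 991 CPM in myogenic-like and 303 CPM in other WT cells (3.27 in the WT, 3.18 in the KO library). Ndufa1, a small accessory subunit encoded on the X chromosome, went the other way with 188 CPM in myogenic-like and 252 CPM in other WT cells (0.747, and 0.949 in the KO library). The 13 subunits encoded by mitochondrial DNA gave ratios of 1.99 and 1.87.

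Differentiating cells held more of the members than stem-state cells in both libraries. The members stood at 36648 CPM in the stem and 48161 CPM in the differentiating state of the WT library, a ratio of 1.31 [1.30 to 1.33], and at 41074 and 48392 CPM in the KO library, a ratio of 1.18 [1.17 to 1.19]. Of 73 members at 50 CPM or more, 71 were higher in the differentiating state in the WT (51.6% of all genes) and 70 in the KO library (46.0% of all genes). Ndufs5, an accessory subunit of complex I, was at 201 CPM in the stem and 401 CPM in the differentiating WT cells (1.995 in the WT, 1.38 in the KO library). Atp5k, the e subunit that helps ATP synthase dimers form, was at 529 and 967 CPM in the WT (1.83, with 1.47 among KO cells). Atp5g2, 1 of the 3 genes for the proton-carrying c-ring, was not higher, with ratios of 0.878 and 0.934. The number of differentiating cells is small, 41 and 63, and 5 cells in each library held at least 10 UMIs of the muscle creatine kinase gene Ckm, a fibre gene. Without them the members' share of the differentiating cells was 4.57% in WT and 4.74% in KO cells, beside 4.82% and 4.84% with them.

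The cycling state stood between these in the WT library only. There the members were 1.14 times as high as in the stem state, with 59 of 73 members higher (56.9% of all genes), and in the KO library 0.995 times as high, with 38 of 73 higher (49.6% of all genes). Uqcr10, a small subunit of complex III, was at 458 CPM in the stem and 713 CPM in the cycling WT cells, a ratio of 1.56, and the KO ratio was 1.08. Cox7a2l, which joins complexes III and IV into supercomplexes, was lower in the cycling state, at 0.719 in WT and 0.832 in KO cells. Whether the WT and KO ratios between states differ beyond animals could not be tested.

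Between the libraries, the stem state held more of the members in the KO library, the cycling state slightly less, and the differentiating state about the same. In the stem state the sum went from 36648 CPM in the WT to 41074 CPM in the KO library, a ratio of 1.121 [1.115 to 1.127]. In the cycling state it was 41670 and 40865 CPM, a ratio of 0.981 [0.971 to 0.990], and in the differentiating state 48161 and 48392 CPM, a ratio of 1.005 [0.994 to 1.016]. The interval of the differentiating state includes 1. Over all myogenic-like cells the ratio was 1.110 [1.106 to 1.115], and with the 3 states given equal weight it was 1.03. The stem-state ratio also depends on where the state is cut. At a finer clustering, which left 492 WT and 120 KO cells in it and put 127 and 143 cells in the cycling state, the stem-state ratio was 0.988. Of the few single members followed at that setting, Uqcrb was at 1.25 and Cox7a1 at 2.85. Both stood highest at the main setting, Uqcrb among the abundant and Cox7a1 among the measured members. Most members were not followed at the finer setting. Scaling by the median ratio of abundant genes, in place of the total, gave 1.03.

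The stem-state difference was spread over most members. Of 73 members at 50 CPM or more, 61 were higher in the KO stem state, beside 65.0% of all 2684 genes at that level, and 22 reached a ratio of 1.25, beside 24.4% of all genes. The second share is close to that of the members, 22 of 73. The median log2 ratio was 0.22 over the members measured and 0.11 over all genes of at least 50 CPM. In all myogenic-like cells 60 of 73 members were higher (64.5% of all genes) and 17 reached 1.25 (23.0% of all genes). In the cycling state 28 of 73 were higher (53.9% of all genes) and in the differentiating state 39 of 74 (52.6% of all genes).

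The ratio in the stem state differed with the depth of the cells. Among stem-state cells under 10000 UMIs (67 WT and 29 KO cells) it was 1.009 [0.982 to 1.037], from 10000 to 20000 UMIs (332 and 95 cells) 1.080 [1.069 to 1.090], and from 20000 to 40000 UMIs (176 and 92 cells) 1.144 [1.135 to 1.152]. At 40000 UMIs or more (10 and 12 cells) it was 0.986 [0.968 to 1.004]. Median depths of the state were 16677 UMIs in WT and 19121.5 in KO cells, and the share of the members was itself higher in deeper cells of both libraries, from 3.13% and 3.16% in the shallowest to 4.39% and 4.32% in the deepest cells. Cells with a Pax7 UMI gave 1.089 and cells without one 1.181. Other RNA moved as well: in the stem state ribosomal protein genes took 29.4% of the WT and 25.6% of the KO UMIs, and immediate early genes known to respond to tissue dissociation had a KO/WT ratio of 0.721. Without mitochondrial and ribosomal protein genes in the total the stem-state ratio was 1.06. The part of these in the difference was otherwise not tested.

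**Figure D2:**
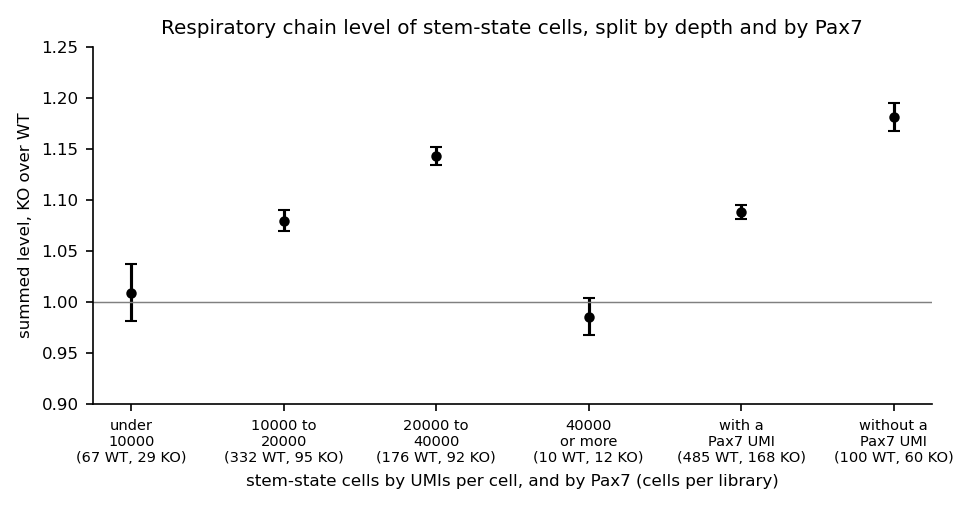
Ratio (KO over WT) of the members' summed level in stem-state cells, by UMIs per cell and by whether a Pax7 UMI was found, with 95% counting intervals and the grey line at equal levels. The ratio is 1.009 below 10000 UMIs, 1.080 and 1.144 in the next bins and 0.986 in the few deepest cells, and it is 1.089 with and 1.181 without a Pax7 UMI.

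By complex, the stem-state sums were higher in the KO library for complex I (10484 and 11939 CPM, 1.14), complex III (4266 and 4950 CPM, 1.16) and complex V (10437 and 12012 CPM, 1.15), and less so for complex IV (11461 and 12173 CPM, 1.06). In the cycling state complex IV was lower, 12642 and 11819 CPM (0.935 [0.919 to 0.951]), while complex I, complex III and complex V had intervals that include 1. In the differentiating state the 4 sums lay between 0.979 for complex IV and 1.02 for complex V. In each myogenic state complex IV thus had the lowest ratio of the 4, although its sum rests largely on a few very abundant genes such as Cox8a and Cox4i1. Complex IV made up 31.3% of the members' UMIs in the WT stem state and 29.6% in the KO stem state.

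**Figure D3:**
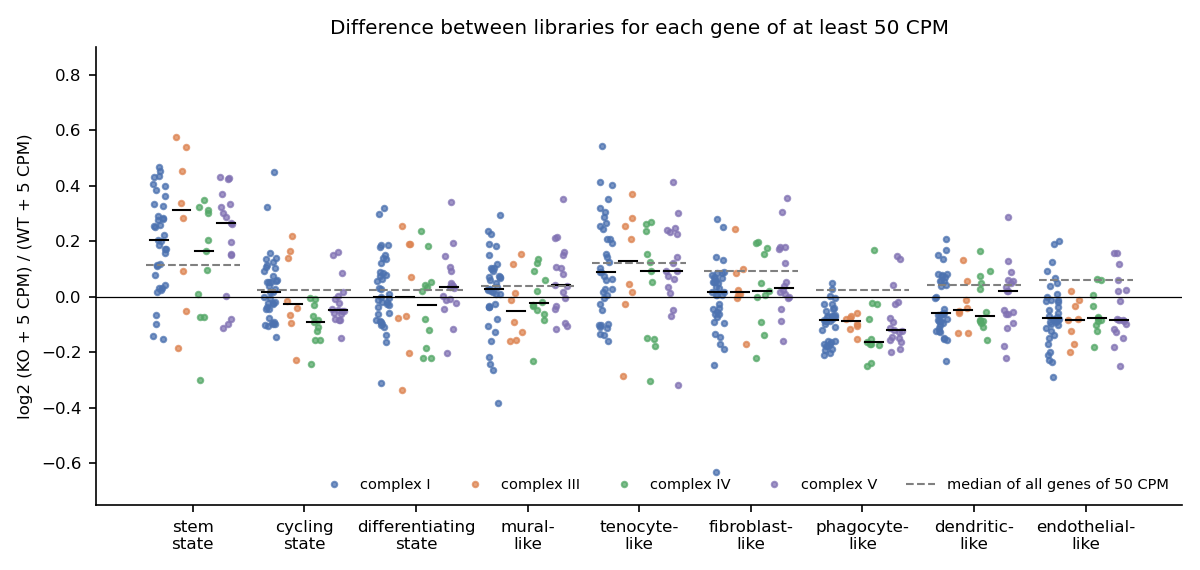
Log2 KO/WT ratio (CPM + 5) of each member of at least 50 CPM, by complex, in the myogenic states and in other classes; black lines are medians of the members and dashed lines the median of all genes at that level. Stem-state members lie mostly above 0 in every complex, and mononuclear phagocyte-like members mostly below it.

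The subunits of complex III did not all go one way in the stem state. Uqcrb, Uqcrq, Uqcr10 and Uqcr11, the small subunits that surround cytochrome b, were all higher in the KO library and together went from 2088 to 2894 CPM, a ratio of 1.39 [1.36 to 1.42]. The core proteins Uqcrc1 and Uqcrc2, the Rieske iron-sulfur protein Uqcrfs1 and the hinge protein Uqcrh, which helps cytochrome c1 dock cytochrome c, together went from 2177 to 2057 CPM, a ratio of 0.945 [0.922 to 0.967]. This second sum is mostly Uqcrh, and 2 of its 4 genes were higher. The 2 sums lay on opposite sides of 1 elsewhere too. Their ratios were 1.05 and 0.952 in the cycling and 1.08 and 0.924 in the differentiating state. Fibro-adipogenic or fibroblast-like cells gave 1.08 and 0.929, tenocyte-like 1.12 and 0.9004 and mural-like 1.05 and 0.902. Both sums were below 1 in phagocyte-like (0.927 and 0.935) and endothelial-like cells (0.961 and 0.8897). Dendritic-like cells gave 1.01, with an interval that includes 1, and 0.956.

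Uqcrb had the largest ratio among the abundant members, 426 CPM in WT and 636 CPM in KO cells of the stem state (1.49 [1.43 to 1.57]). It was also higher in the cycling state, 573 and 643 CPM (1.12), and in the differentiating state, 641 and 765 CPM (1.19). In phagocyte-like cells it was lower, 405 and 364 CPM (0.899). Uqcrq, which sits at the ubiquinone side of the complex, was at 536 and 782 CPM in the stem state (1.46 [1.40 to 1.52]), with ratios of 1.16 in the cycling, 1.14 in the differentiating state and 0.923 in phagocyte-like cells. Uqcr10 was at 458 and 629 CPM (1.37) in the stem state but at 713 and 681 CPM (0.955) in the cycling state.

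Uqcrh was below 1 in every class compared here. In the stem state it was at 1416 CPM in WT and 1244 CPM in KO cells (0.879 [0.853 to 0.906]). Its ratio was 0.936 in the cycling and 0.953 in the differentiating state, 0.930 in phagocyte-like, 0.888 in fibro-adipogenic or fibroblast-like, 0.871 in endothelial-like, 0.894 in mural-like, 0.820 in tenocyte-like and 0.960 [0.912 to 1.01] in dendritic-like cells, where the interval includes 1. The listed copies Uqcrh-ps1 and Uqcrh-ps2 held 17 and 8 UMIs in all WT and 25 and 7 UMIs in all KO cells. Uqcrc2, a core protein, was at 289 and 279 CPM in the stem state (0.965 [0.904 to 1.03], an interval that includes 1), and at 369 and 292 CPM in the differentiating state (0.790 [0.692 to 0.902]). Its partner Uqcrc1 was at 188 and 230 CPM in the stem state (1.22).

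Of complex I, 28 of 32 accessory subunits with at least 20 UMIs, the processed pseudogene Ndufb4c among them, were higher in the KO stem state, beside 56.5% of all genes with at least 20 UMIs. Their sum went from 9089 to 10430 CPM (1.15). The core subunits that carry electrons and bind NADH, 6 of 7 of them higher, together stood at 1395 and 1508 CPM (1.08). The larger differences were in small accessory subunits of the membrane and peripheral arms. Ndufb8 was at 373 and 517 CPM (1.39 [1.32 to 1.46]), Ndufa5 at 248 and 342 CPM (1.38) and Ndufs6, which carries a zinc site needed late in assembly, at 152 and 206 CPM (1.36). All 3 were near 1 in the cycling state, at 0.997, 1.04 and 0.932. Among core subunits Ndufs1, the iron-sulfur protein that passes electrons on from the flavin site, was at 52.0 and 63.2 CPM (1.22 [1.05 to 1.40]) in the stem state, 1.40 in the cycling and 1.26 in the differentiating state, and 1.23 in phagocyte-like cells. Lower accessory subunits in the KO stem state were Ndufa7 at 551 and 495 CPM (0.899) and Ndufa6 at 345 and 313 CPM (0.906).

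Ndufs5 carries a doubt. It was at 201 CPM in WT and 273 CPM in KO cells of the stem state (1.36 [1.27 to 1.46]), but the listed copy Ndufs5-ps was at 33.9 CPM in WT and 8.35 CPM in KO cells of the stem state (0.246 [0.173 to 0.342]). Over all cells the copy was at 26.9 and 6.95 CPM, a ratio of 0.259, and it was lower in the KO library in every class and state compared. Whether and how reads were shared between the gene and its listed copy is stated by none of the sources used here, and their sequences were not compared. The summed level of both was 235 and 281 CPM in the stem state (1.20 [1.12 to 1.28]), and over all cells their summed ratio was 0.998 where Ndufs5 alone gave 1.12. In the differentiating state the summed ratio was 0.842 and that of Ndufs5 alone 0.942.

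The ATP synthase is a rotary enzyme: protons turn the c-ring in the membrane, and a central shaft drives the catalytic head. In the stem state the catalytic F1 head (Atp5a1, Atp5b, Atp5c1, Atp5d, Atp5e) stood at 4214 and 4328 CPM (1.03), the peripheral stalk at 2521 and 2945 CPM (1.17), the small membrane subunits at 2737 and 3484 CPM (1.27 [1.25 to 1.30]) and the c-ring genes at 965 and 1255 CPM (1.30 [1.26 to 1.34]). The head was thus the part nearest to 1. All 5 small membrane subunits (Atp5j2, Atp5k, Atp5l, Atp5md, Atp5mpl) were higher in the stem and in the differentiating state, with summed ratios of 1.27 and 1.11 (56.5% and 50.9% of all genes with at least 20 UMIs were higher there). In the cycling state, where 51.9% of all genes with at least 20 UMIs were higher, 3 of the 5 were higher. Their sum gave 1.02, with an interval that includes 1. None of the 5 head genes was higher there, with a sum of 0.959.

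The c-ring genes encode the same mature protein with different import sequences, and they did not move together. Atp5g1 was at 498 and 673 CPM (1.35 [1.29 to 1.41]) and Atp5g3 at 351 and 473 CPM (1.35 [1.28 to 1.42]) in the stem state. Atp5g2 was at 116 and 108 CPM (0.932 [0.839 to 1.03]). In the head, Atp5a1 was at 533 and 642 CPM (1.20) and Atp5b at 937 and 1075 CPM (1.15), while the epsilon subunit Atp5e was at 1210 and 1118 CPM (0.924) and the gamma subunit Atp5c1, the shaft, at 778 and 735 CPM (0.945). Atp5a1 and Atp5b were also higher in the KO library in phagocyte-like cells, where most members were lower, at 207 and 230 CPM (1.11) and at 248 and 274 CPM (1.10). Atp5l stood out in the differentiating state, at 491 and 623 CPM (1.27 [1.14 to 1.41]).

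Of the widely expressed complex IV isoforms, 8 of 10 were higher in the KO stem state and none of 10 in the cycling state or in phagocyte-like cells, beside 56.5%, 51.9% and 63.8% of all genes with at least 20 UMIs. Their sums were 10914 and 11695 CPM in the stem state (1.07), with ratios of 0.933 in the cycling state and 0.896 in phagocyte-like cells. Cox5a, 1 of the subunits next to the catalytic core, was at 587 and 749 CPM in the stem state (1.28) and at 549 and 462 CPM in phagocyte-like cells (0.841 [0.826 to 0.857]). Cox8a, the most abundant member in the stem state, was at 2260 and 2276 CPM there (1.01), and Cox4i1, which carries an ATP-binding site, at 1885 and 1793 CPM (0.951 [0.927 to 0.976]). Cox7a2l was at 519 and 421 CPM (0.811 [0.771 to 0.854]) in the stem state, the lowest ratio among the abundant members, and was higher in the KO phagocyte-like cells, at 361 and 406 CPM (1.12 [1.10 to 1.15]). A low Cox7a2l ratio was not limited to the stem state. Tenocyte-like cells gave 0.807 [0.702 to 0.929], and mural-like cells 0.943, with an interval that includes 1. The sum of Cox7a2l and Cox4i2 gave 0.852 in fibro-adipogenic or fibroblast-like cells. Dendritic-like cells, with a Cox7a2l ratio of 1.12, went with the phagocyte-like cells.

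**Figure D4:**
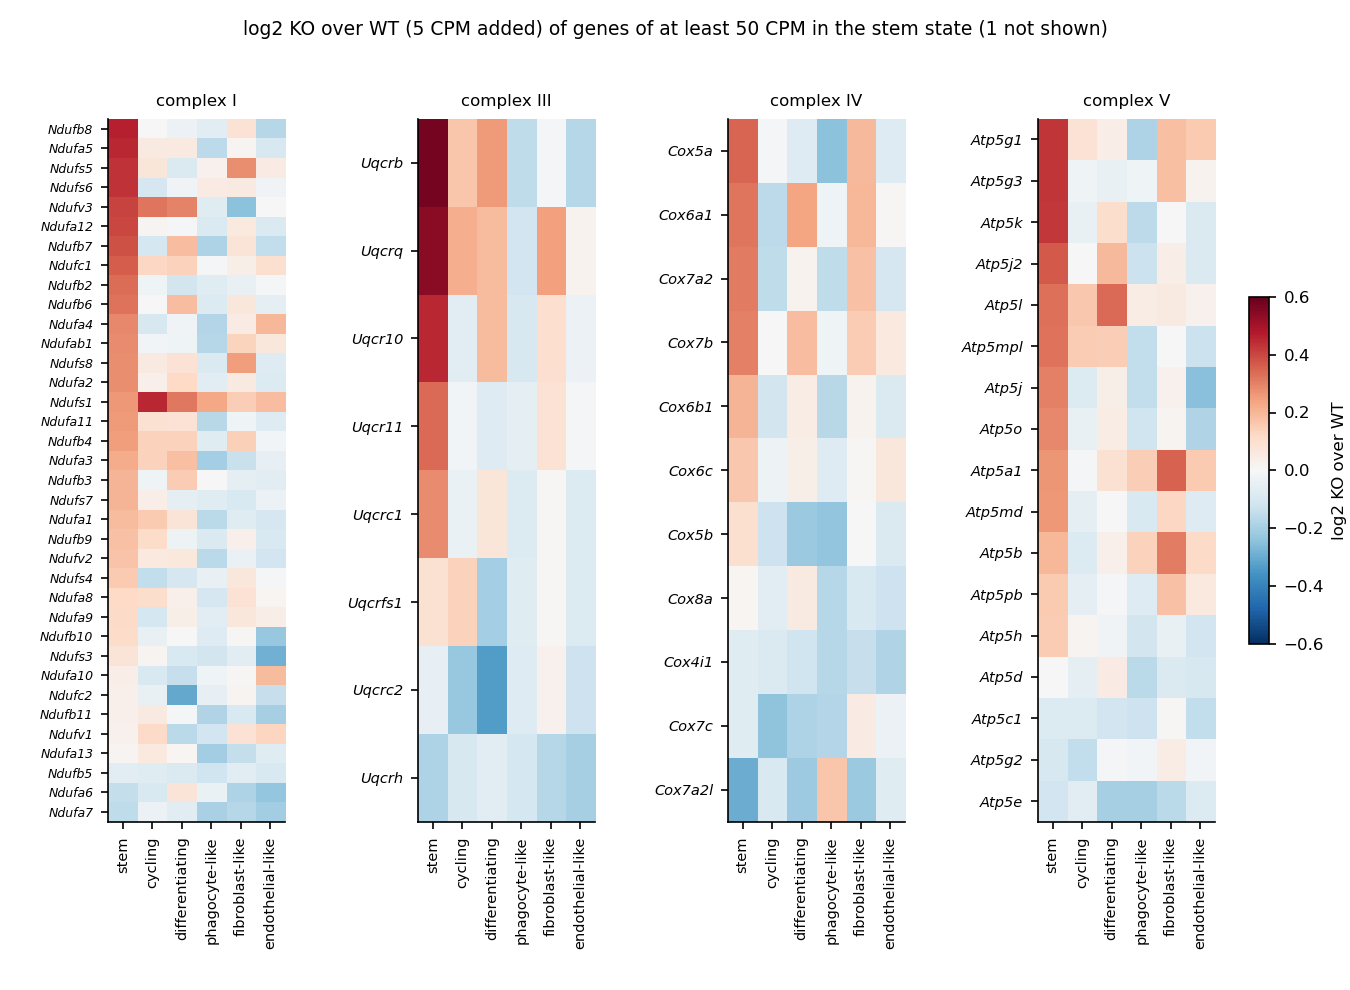
Log2 KO/WT ratio (CPM + 5) of members of at least 50 CPM in the stem state (1 is not shown), ordered within each complex by that ratio, in the myogenic states and 3 other classes; red is higher and blue lower in the KO library. Uqcrb and Uqcrq are high in the stem state, and Cox7a2l and Uqcrh are low there.

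Several complex IV subunits exist as isoform pairs, and for some of these the promoters are shown before the values. The CpG count differed within the 2 pairs shown in full, Cox7a2 with Cox7a1 and Cox6b1 with Cox6b2. RefSeq promoters (GRCm38.p6, the 250 bases before the annotated start, read on the gene's strand, 5′ to 3′) were matched by symbol for 66 members. Cox7a2 (chr9:79759854-79760103, minus strand) is widely expressed and Cox7a1 (chr7:30183921-30184170, plus strand) is its isoform of heart and skeletal muscle. Cox6b1 (chr7:30626115-30626364, minus strand) is widely expressed and Cox6b2 (chr7:4753095-4753344, minus strand) is known from testis. Cox8b (chr7:140900447-140900696, minus strand) is a muscle isoform, and Cox6a1 (chr5:115348959-115349208, minus strand) a widely expressed member that holds 2 of the motifs searched. Capitals mark those motifs, CTTCCGG (the ETS motif read on the other strand) in Cox6b1 and Cox6a1, GCGCATGCGC in Cox6a1, which is the NRF1 motif on both strands, and CAGCTG in Cox8b.
Cox7a2: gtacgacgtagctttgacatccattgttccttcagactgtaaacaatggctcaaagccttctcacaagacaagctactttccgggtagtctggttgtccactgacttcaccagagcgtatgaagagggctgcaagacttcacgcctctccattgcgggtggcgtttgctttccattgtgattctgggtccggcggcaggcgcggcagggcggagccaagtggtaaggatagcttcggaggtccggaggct
Cox7a1: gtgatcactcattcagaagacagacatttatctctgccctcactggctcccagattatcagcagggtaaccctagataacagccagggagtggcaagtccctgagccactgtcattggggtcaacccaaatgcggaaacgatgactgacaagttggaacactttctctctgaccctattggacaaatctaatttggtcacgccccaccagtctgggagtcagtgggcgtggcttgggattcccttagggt
Cox6b1: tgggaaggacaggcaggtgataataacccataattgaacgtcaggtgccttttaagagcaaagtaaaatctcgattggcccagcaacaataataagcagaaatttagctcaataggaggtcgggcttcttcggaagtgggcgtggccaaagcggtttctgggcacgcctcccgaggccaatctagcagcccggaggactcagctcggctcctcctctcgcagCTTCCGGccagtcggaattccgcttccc
Cox6b2: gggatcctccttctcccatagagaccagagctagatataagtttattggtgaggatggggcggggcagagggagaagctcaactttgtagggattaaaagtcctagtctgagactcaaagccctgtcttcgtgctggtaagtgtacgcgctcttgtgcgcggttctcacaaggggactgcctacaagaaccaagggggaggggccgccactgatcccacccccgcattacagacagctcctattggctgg
Cox8b: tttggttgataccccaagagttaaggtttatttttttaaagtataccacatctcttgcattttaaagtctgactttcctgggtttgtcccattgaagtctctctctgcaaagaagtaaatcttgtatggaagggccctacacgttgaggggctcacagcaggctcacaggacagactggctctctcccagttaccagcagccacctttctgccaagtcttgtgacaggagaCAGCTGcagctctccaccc
Cox6a1: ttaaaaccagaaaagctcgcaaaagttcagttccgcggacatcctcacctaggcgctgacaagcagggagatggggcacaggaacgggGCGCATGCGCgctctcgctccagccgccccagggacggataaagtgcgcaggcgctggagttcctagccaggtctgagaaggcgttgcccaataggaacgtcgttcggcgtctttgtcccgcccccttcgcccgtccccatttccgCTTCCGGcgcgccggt

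The promoters of Cox7a1 and Cox8b hold 4 and 1 CpG, and that of Cox6b2 holds 8, where those of Cox7a2 and Cox6b1 hold 14 each and that of Cox6a1 holds 26. Leaving out Cox7a1, Cox8b, Cox6b2 and the germ-cell isoform Cox7b2, which holds 9, the median over the 62 remaining matched members was 14.5 CpG (from 4 to 35), and over all 27025 promoters of the table it was 6. The motif GCGCATGC, known for the factor NRF1 that acts on respiratory chain genes, was in 7 of 66 members (10.6%) and in 2.32% of all promoters, searched on both strands. CCGGAAG, the core bound by ETS factors such as GABPA, was in 10 of 66 (15.2%) and in 7.05% of all promoters. The E-box CAGCTG, known for myogenic factors, was in 6 of 66 (9.09%) and in 12.8% of all promoters, and AAGATGG, known for YY1, in 0 of 66 and in 4.53% of all promoters. Matches of different motifs overlapped in 7 of all promoters and in 0 of the members. A match is a description of these letters and not a measured binding site.

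Cox7a1 was the member with the largest KO/WT ratio in the stem state among those measured, though at a low level. It was at 8.69 CPM in WT and 25.04 CPM in KO cells (2.88 [2.18 to 3.83]), and 65 of 585 WT and 71 of 228 KO cells held a UMI of it. Endothelial-like cells, a class that should lack it, held one in 7 of 643 WT and 13 of 534 KO cells at median depths of 8996 and 10981 UMIs. After thinning to 1000 UMIs per cell, 2 of 585 WT and 8 of 228 KO stem-state cells kept one, a level too near 1 UMI to compare. In the differentiating state it was at 20.4 and 49.3 CPM (2.42 [1.51 to 4.06]), and without the cells that hold 10 or more Ckm UMIs at 18.2 and 46.7 CPM. In the cycling state it was at 18.7 and 19.5 CPM (1.04). The KO stem state thus stood above the KO cycling state, and the WT stem state below the WT cycling state. Its widely expressed partner Cox7a2 was at 709 and 882 CPM (1.24) in the stem state. The summed level of the muscle fibre markers in the stem state was 697 CPM in WT and 1008 CPM in KO cells, and the part of fibre RNA in the Cox7a1 difference was not tested. Outside the myogenic cells Cox7a1 was at 13.4 and 15.9 CPM in phagocyte-like cells (1.18) and at 20.3 and 25.9 CPM in mural-like cells. Dendritic-like cells had a ratio like that of the stem state, at 2.03 and 5.79 CPM (2.85 [1.24 to 7.11]), from 9 and 20 UMIs. Tenocyte-like cells held 2 UMIs in each library. The sum of Cox6a2, Cox7a1 and Cox8b was 1.15 and 4.46 CPM in endothelial-like cells (3.88 [1.75 to 9.77]). In fibro-adipogenic or fibroblast-like cells that sum was 4.37 and 3.89 CPM (0.890).

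Cox6b2 was likewise low and higher in the KO stem state, at 12.3 and 24.2 CPM (1.97 [1.52 to 2.55]), with a UMI in 90 of 585 WT and 65 of 228 KO cells, beside 16 of 643 and 15 of 534 endothelial-like cells. The cycling state gave 11.7 and 23.8 CPM (2.03 [1.22 to 3.50]) and the differentiating state 7.40 and 12.8 CPM (1.72 [0.744 to 4.45], an interval that includes 1). In phagocyte-like cells it was at 6.24 and 6.83 CPM (1.10). Its highest level was in mural-like cells, at 42.6 CPM in WT and 32.3 CPM in KO cells. The germ-cell isoforms Cox7b2 and Cox8c, and Cox6c2, which was grouped with them but is annotated as a processed pseudogene, had fewer than 20 UMIs in the stem state.

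Cox6a2, the heart and skeletal muscle partner of Cox6a1, was almost absent from the stem state, at 0.573 CPM in WT and 2.50 CPM in KO cells, from fewer than 20 UMIs in both together. In the differentiating state it was at 78.7 and 37.1 CPM (0.472 [0.338 to 0.658]). Most of that came from the few cells rich in Ckm: 67 of 85 WT and 50 of 67 KO UMIs of Cox6a2 were in the 5 cells of each library with at least 10 Ckm UMIs, and in the other cells the levels were 20.4 and 10.6 CPM. Cox8b, the fibre partner of Cox8a, was at 34.2 and 33.3 CPM in the differentiating state (0.971), and at 15.9 and 16.8 CPM without those cells. Its stem-state levels were 2.20 and 1.25 CPM.

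The highest level of Cox6a2 was not in a muscle class. In a cluster of 26 WT and 19 KO cells led by Ly6d, Siglech and Ccr9, genes known from plasmacytoid dendritic cells, it was at 1547 CPM in WT and 1511 CPM in KO cells. There 22 of 26 and 18 of 19 cells held a UMI of it, and it made up 84.9% and 85.4% of the UMIs of Cox6a1 and Cox6a2 together. The members were kept out of the clustering, so Cox6a2 did not help to form this cluster, which belongs to the dendritic-like class. In phagocyte-like cells it was at 10.9 and 22.4 CPM (2.06 [1.85 to 2.30]), and at 7.52 and 17.0 CPM in those with under 10 Ckm UMIs. Within that class a cycling cluster held 6.87 CPM in WT and 87.9 CPM in KO cells.

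Mural-like cells were the class of Cox4i2 and Ndufa4l2, isoforms known from hypoxia and from vascular and lung cells. Cox4i2 was at 391 CPM in WT and 332 CPM in KO mural-like cells (0.850 [0.759 to 0.952]) and made up 24.7% and 22.2% of the Cox4i1 and Cox4i2 UMIs. A UMI of it was in 121 of 123 WT and 118 of 125 KO cells, and after thinning every cell to 1000 UMIs in 49 of 123 and 43 of 125. In endothelial-like cells, its level was 3.45 and 2.73 CPM, with a UMI in 21 of 643 and 15 of 534 cells. Ndufa4l2 was at 1110 and 1032 CPM in mural-like cells, where it made up 84.3% and 85.3% of the UMIs of Ndufa4 and Ndufa4l2. Ndufa4, its partner, was first assigned to complex I and later found in complex IV, and is counted with complex I here by its symbol. Fibro-adipogenic or fibroblast-like cells held less Ndufa4l2, at 144 and 91.3 CPM (0.633 [0.598 to 0.670]), and endothelial-like cells 12.4 and 6.33 CPM (0.512 [0.348 to 0.745]). Both classes were lower in the KO library.

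**Figure D5:**
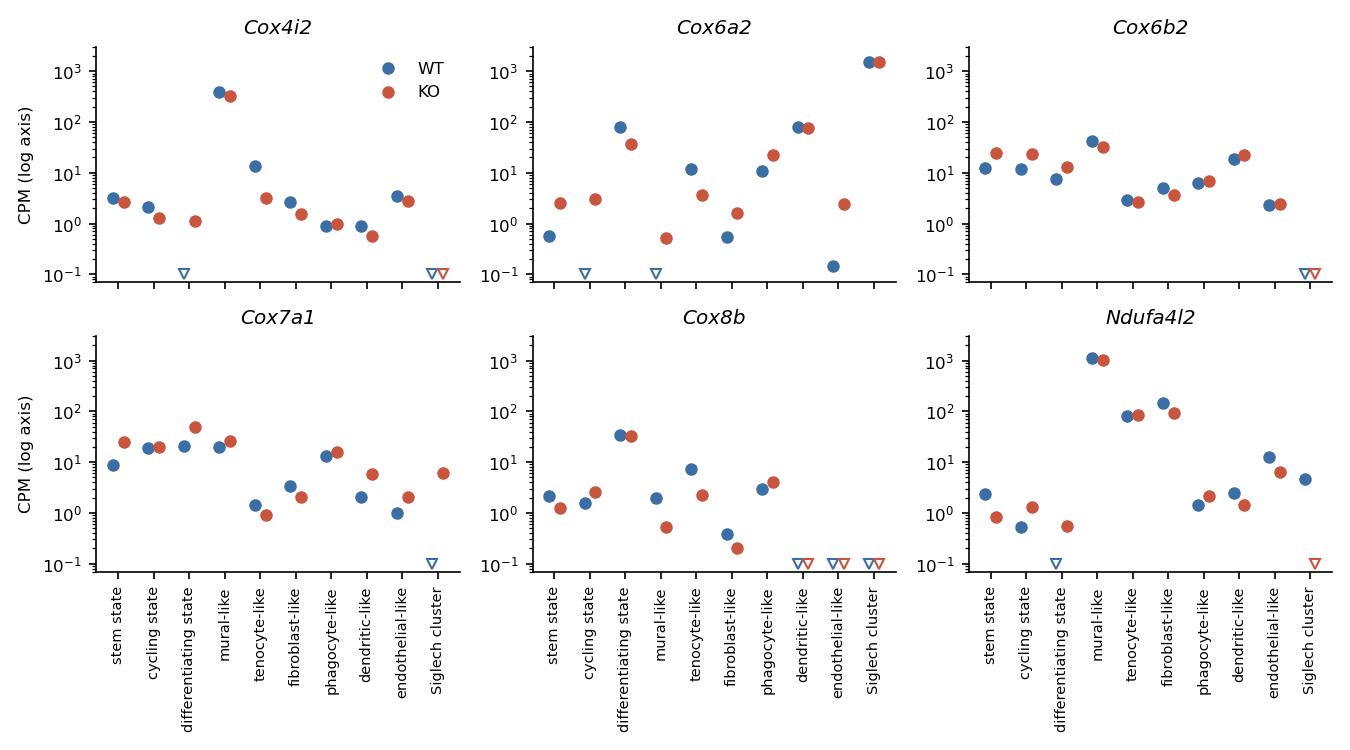
Level (CPM, log axis) of isoforms of restricted expression by class and library, with the Siglech cluster of the dendritic-like class last; open downward triangles mark a level of 0. Cox4i2 and Ndufa4l2 peak in mural-like cells, Cox6a2 in dendritic-like cells (through the Siglech cluster) and the differentiating state, and Cox7a1 is higher in KO than in WT stem-state cells.

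The largest class, mononuclear phagocyte-like cells (macrophages and monocytes of the injured muscle), held less of the members in the KO library. Their sum was 23191 CPM in WT and 21381 CPM in KO cells, a ratio of 0.922 [0.919 to 0.925]. Only 7 of 71 members at 50 CPM or more were higher (Ndufb3, Ndufs5, Ndufs6, Cox7a2l, Atp5a1, Atp5b and Atp5l), beside 54.5% of all genes at that level. Of these, Ndufs5 was at 1.02 alone, but at 0.903 [0.873 to 0.934] when summed with its listed copy Ndufs5-ps. The 4 complexes were close together, from 0.910 for complex IV to 0.930 for complex III. The ratio was below 1 in 9 of the 10 clusters of this class, from 0.908 to 1.03. Cox5b was at 570 and 483 CPM (0.846), Ndufa13 at 463 and 400 CPM (0.864), Atp5e at 1026 and 894 CPM (0.871) and Ndufa3 at 367 and 318 CPM (0.867). Cox8b was at 2.98 and 4.12 CPM (1.38), but 118 of 132 WT and 161 of 188 KO UMIs of it were in 8 and 10 cells with at least 10 Ckm UMIs, and the other cells held 0.317 and 0.594 CPM. By depth the phagocyte ratio was 0.982 under 10000 UMIs, 0.908 from 10000 to 20000, 0.917 from 20000 to 40000 and 0.784 at 40000 or more UMIs (10 and 6 cells). Immediate early genes had a ratio of 1.15 in this class, the opposite side of 1 from the stem state.

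The other classes lay nearer to 1, with single genes apart. Fibro-adipogenic or fibroblast-like cells gave 1.009 [1.005 to 1.013], with 46 of 72 members higher (64.3% of all genes) and, at the floor of 20 UMIs, 50 of 80 (56.5% of all genes). Atp5a1 was at 241 and 310 CPM there (1.28), Atp5b at 362 and 449 CPM (1.24) and Ndufv3, a flavoprotein-arm subunit, at 295 and 248 CPM (0.841). This sum turned below 1 when mitochondrial and ribosomal protein genes were left out of the total (0.973). Endothelial-like cells gave 0.951 [0.944 to 0.958], with 18 of 72 higher (61.0% of all genes) and, at the floor of 20 UMIs, 21 of 78 (62.3% of all genes). Ndufa4 was at 294 and 338 CPM there (1.15) and the stalk subunit Atp5j at 660 and 554 CPM (0.839 [0.804 to 0.876]). Dendritic-like cells gave 0.981 [0.972 to 0.990], with 30 of 73 higher (57.9% of all genes), and Atp5a1 was at 190 and 233 CPM (1.23). These classes differed in which members departed from the class sum, with Atp5a1 above it in each of them.

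Mural-like cells gave 1.005 [0.992 to 1.018], with 44 of 74 higher (56.6% of all genes), and Ndufb10 was at 296 and 226 CPM (0.763). Within both clusters of this class, however, the ratio was below 1. A cluster led by Myh11 gave 0.926 [0.912 to 0.941], with 71 WT and 101 KO cells and members' shares of 3.28% and 3.03%. A cluster marked by Kcnj8 gave 0.980 [0.957 to 1.003], with 52 and 24 cells and shares of 2.32% and 2.28%. The mix of these clusters thus differed between the libraries. Tenocyte-like cells, 80 and 115 of them, gave 1.042 [1.028 to 1.057], with 53 of 73 higher (66.2% of all genes). Ndufb4 was at 76.7 and 114 CPM there (1.49 [1.18 to 1.88]) and Atp5g1 at 331 and 442 CPM (1.34). The share of members higher was near that of all genes in fibro-adipogenic or fibroblast-like, mural-like and tenocyte-like cells.

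Other genes of the mitochondrion did not all go with the nuclear-encoded subunits. In myogenic-like cells, where 7352 of 13565 genes with at least 20 UMIs were higher in the KO library (54.2%), only 2 of the 13 subunits encoded by mitochondrial DNA were, with summed levels of 9403 and 8472 CPM (0.901 [0.893 to 0.909]). Within the states their ratios were 0.930 in the stem, 0.831 in the cycling and 0.850 in the differentiating state. Of these, mt-Co1, the catalytic subunit of complex IV, was at 1228 and 877 CPM (0.715) and mt-Nd3, a membrane subunit of complex I, at 54.1 and 72.3 CPM (1.34). Complex II and the electron carriers had 15 of 22 genes higher and a summed ratio of 1.25 [1.23 to 1.28]. There Cycs, the gene of cytochrome c, was at 260 and 436 CPM (1.68 [1.60 to 1.76]) and Sdhb, the iron-sulfur subunit of complex II, at 215 and 284 CPM (1.32).

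The counts of further lists in myogenic-like cells also stand beside the 54.2% of all genes with at least 20 UMIs that were higher. Assembly factors of the complexes had 36 of 51 genes higher and a ratio of 1.18, with the copper chaperone Cox17 at 173 and 271 CPM (1.56) and Surf1, an assembly factor of complex IV, at 54.6 and 35.7 CPM (0.654). The tricarboxylic acid cycle genes, which supply NADH and succinate, had 11 of 17 higher (1.11), and Idh3a was at 66.9 and 99.1 CPM (1.48). Carriers, pores and chaperones had 19 of 23 higher (1.06), among them the ADP/ATP carrier Slc25a5 at 532 and 754 CPM (1.42), and mitochondrial ribosomal proteins 60 of 78 (1.09). Regulators of mitochondrial biogenesis had 9 of 15 higher (1.06), a share near that of all genes, with Nrf1 at 14.96 and 18.3 CPM (1.22 [0.989 to 1.51], an interval that includes 1). Glycolysis genes had 16 of 18 higher (1.22), and Ldha, the muscle lactate dehydrogenase subunit, was at 308 and 536 CPM (1.74). These lists, like the members, were higher in a summed level in which differentiating and cycling cells weigh more in the KO library.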

How the data were processed

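Per the values in the deposited matrices, the authors' files hold unfiltered whole-number UMI counts per gene and barcode for 1 WT and 1 KO library (121703522 and 138667420 UMIs), with no normalization by the authors. STARsolo 2.7.9a, STAR 2.7.8a, Seurat 4.0.1 and GRCm38 are named per the submitters' processing notes, and libraries were 10x 3' v2 per the labels' protocols. The annotation release and counting settings are stated by none of the sources used here.

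The UMI minimum of a cell was the 99th percentile over the 3000 deepest barcodes of its library, divided by 10. A cell also needed 500 UMIs and 300 genes, with at most 10% mitochondrial UMIs, which left 6670 WT and 6020 KO barcodes. Scrublet's own threshold marked none, so the highest doublet scores were removed at 0.8% per 1000 cells (356 and 290). Both libraries were clustered together (scanpy 1.11.5, 2000 variable genes without the members, 30 components, 15 neighbours, Leiden resolution 1). Clusters were named from marker lists by a scoring rule chosen after the data were seen. Classes were ranked first by how many of their markers were among the cluster's 10 leading genes. Ties went to the class with a greater part of its list detected and higher than in other cells.

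Class sums of UMIs in each library were scaled to CPM, for which 3' tags need no gene length. Intervals at 95% are exact Poisson or Clopper-Pearson for levels and shares and conditional binomial for ratios, computed with scipy 1.17.1 and tested on simulated data. Log2 ratios used CPM + 5. Genes are described in classes that hold 50 or more cells per library, and also in the smaller differentiating state and Siglech cluster. Members counted need 20 UMIs over both sums or, in other counts, a mean of at least 50 CPM. The share of all genes beside a count rests on genes that pass the same floor. All members were open to naming in myogenic-like cells, with fixed isoform pairs, and the 5 highest and 5 lowest by the interval bound nearest to 1 in other classes. Up to 4 genes of each other list followed the same rule. Nrf1, Sdhb, Surf1, mt-Nd3 and some members named in other classes were chosen after their values were seen. The members and lists were chosen with earlier results of these data known. The values of 1 member are not reported here, though it is included in the counts and sums.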

Additional observations from a re-analysis of the deposited data

Results flagged for a closer look

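The KO/WT ratio of the members' summed level was above 1 in the stem state (1.12) and below 1 in other classes or states. It was 0.981 in the cycling state, 0.981 in dendritic-like cells, 0.951 in endothelial-like cells and 0.922 in mononuclear phagocyte-like cells. These stand apart from the stem state because the libraries differ in the opposite direction there. With 1 library a group the difference between them was not tested.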

How the results depend on the processing

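No paired analysis was possible because each group has 1 library. The KO/WT ratio of the summed level is given here for all myogenic-like cells, the stem, cycling and differentiating state and phagocyte-like cells, in that order, where it moved beyond its counting interval or crossed 1. The main ratios are 1.110, 1.121, 0.981, 1.005 and 0.922. Without mitochondrial and ribosomal protein genes in the total they were 1.053, 1.059, 0.959, 0.985 and 0.911, and without dissociation genes too (added after seeing the data) 1.046, 1.052, 0.957, 0.983 and 0.914. With scaling by the median ratio of abundant genes they were 1.027, 1.032, 0.963, 0.988 and 0.906. With every cell at equal weight all but the cycling ratio moved, to 1.117, 1.108, 1.054 and 0.935. After ambient RNA was subtracted the myogenic, cycling and phagocyte ratios were 1.103, 0.970 and 0.913. With the 3 states at equal weight the myogenic ratio was 1.030. A minimum of 2000 UMIs gave 1.078, 1.101 and 0.885 in myogenic-like, stem and differentiating cells. With doublets kept the ratios were 1.104, 1.066, 1.006, 1.018 and 0.918, so the cycling ratio crossed 1. At Leiden resolution 2 the stem ratio was 0.988 and the cycling ratio 1.004, both across 1, with 1.033 in the differentiating state and 0.919 in phagocyte-like cells. A mitochondrial share of at most 5% gave 1.099 in the stem and 0.996 in the cycling state, and the higher UMI minimum in both libraries 0.969 in the cycling state. With members among the clustering genes the cycling ratio was 0.996. Leaving out cells of 10 or more Ckm UMIs (added after seeing the data) gave 1.037 in the differentiating state. Apart from the clustering settings, which changed the cells in a state, the cause was not tested.

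The number of members higher in the KO library in fibro-adipogenic or fibroblast-like cells, 50, became 31 without mitochondrial and ribosomal protein genes, 29 without dissociation genes too and 19 with median scaling. The class's summed ratio crossed 1 under these settings, to 0.973, 0.972 and 0.944, and to 0.988 with ambient RNA subtracted. In endothelial-like cells 21 members became 35 at the 2000 UMI minimum. In myogenic-like cells the number ran from 56 to 65 and in phagocyte-like cells from 12 to 18 over 13 settings. In the stem state Uqcrb ran from 1.25 to 1.49, Uqcrq from 1.20 to 1.49, Ndufs5 from 1.14 to 1.40, Cox7a1 from 2.65 to 3.29, Cox6b2 from 1.81 to 2.20 and Cox7a2l from 0.747 to 0.825. In the differentiating state Uqcrq crossed 1 at the 2000 UMI minimum (0.968). Depth limits Cox6a2, Cox8b and the germ-cell isoforms in the stem state, which had few UMIs, and the small cycling and differentiating states.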

Other observations

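With a minimum of 2000 UMIs in place of the library's own, the differentiating state held 46 WT and 424 KO barcodes, with median depths of 25085.5 and 3515 UMIs. Their shares of UMIs that belong to the members were 4.80% and 4.25%. The fibro-adipogenic or fibroblast-like class held 778 WT and 2475 KO barcodes at that minimum, with median depths of 21069 and 3967 UMIs.

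In 19 of the 26 clusters the members' summed level was lower in the KO library, with KO/WT ratios from 0.819 to 1.12. Cytosolic ribosomal protein genes, counted apart from the members, had 12 of 88 genes higher in KO than in WT myogenic-like cells, with summed levels of 284817 and 249749 CPM (0.877), and 25 of 90 in phagocyte-like cells (0.947). Of all genes with at least 20 UMIs, 54.2% were higher in KO myogenic-like and 63.8% in KO phagocyte-like cells. Immediate early genes linked to dissociation had 1 of 19 higher in myogenic-like cells (12738 and 8631 CPM, 0.678).

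In the cycling state of the KO library, 7055 of the 7120 UMIs of 7 erythroid marker genes were in 1 cell. In the stem state the summed level of phagocyte markers was 508 CPM in WT and 1045 CPM in KO cells, that of fibro-adipogenic or fibroblast markers 2046 and 1743 CPM, and that of endothelial markers 76.0 and 155 CPM. The part of these in the stem-state values was not tested.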
